A study of Mus musculus with 8 samples.

Results

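The immunity-related GTPases, or IRG genes, were examined in control and DENR KO MC38 cells with and without IFNγ. The 10 members (Iigp1, Igtp, Irgm1, Irgm2, Tgtp1, Tgtp2, Ifi47, Gm4841, Gm4951 and Gm12250) were taken by gene name, and they are 10 of 23998 genes with a row in either deposited table. All 10 had a row with IFNγ and 7 had a row untreated. Tgtp2, Gm4841 and Gm4951 had no row untreated and were not analysed there. No row of either deposited table was 0 in all its samples, so a gene without reads has no row. Why these genes lack one was not tested. MC38 is a mouse colon adenocarcinoma cell line, and DENR is a translation factor that, with its partner MCTS1, acts in ribosome recycling and in reinitiation after short upstream reading frames. The 4 groups were control (labelled wild type) with IFNγ at 20 ng/ml for 4 h, DENR KO with the same IFNγ treatment, control untreated and DENR KO untreated, with 2 samples in each, and RNA-seq was made from poly(A)-selected RNA. All 8 samples share the MC38 background, and the labels do not say whether the 2 DENR KO samples of a treatment are separate clones, separate guides or separate cultures, so the p-values measure only the spread between these samples, which may be technical.

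IRG proteins are large GTPases of the cell-autonomous defence of mice against intracellular parasites and bacteria. In many cell types their genes are nearly silent until IFNγ acts on them through the GAS and ISRE elements of their promoters. The effector proteins Irga6 (encoded by Iigp1), Irgb6 (Tgtp1 and Tgtp2), Irgb10 (Gm12250) and Irgd (Ifi47) load onto the vacuole that holds a pathogen and help to break it, while the regulators Irgm1, Irgm2 and Irgm3 (Igtp) sit on host membranes and hold the effectors inactive there. Gm4841 and Gm4951 belong to the same group as Iigp1, and for these members no role is stated here.

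The promoters were read because the members moved together. Of the 10 members, 7 matched the RefSeq promoter table (GRCm38.p6): Irgm1, Igtp, Irgm2, Tgtp1, Tgtp2, Gm12250 and Ifi47. The 250 bases before each start site were searched on both strands for a GAS (TTCNNNGAA) and for the core of an ISRE (GAAANNGAAA). A GAS was in 7.02% of all 32851 promoters of this length, an ISRE core in 2.98%, both in 0.332%, and both with at most 20 bases between them in 0.122%. Of the 7 members, Tgtp1, Tgtp2, Igtp, Irgm2 and Gm12250 held both at that spacing, Irgm1 held 2 ISRE cores that share 4 bases and no GAS, and Ifi47 held neither. The windows below run 5′ to 3′ on the strand of the gene and show how alike the paired elements are, with GAS and ISRE letters in capitals. Gm12250 held 2 ISRE cores, both on the opposite strand, and the one farther upstream, also at most 20 bases from the GAS, is not in the window.
Igtp, chr11:58199503-58199539 (+): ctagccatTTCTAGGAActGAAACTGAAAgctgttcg
Irgm2, chr11:58214894-58214930 (+): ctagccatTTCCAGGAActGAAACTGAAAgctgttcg
Tgtp1, chr11:48992306-48992342 (-): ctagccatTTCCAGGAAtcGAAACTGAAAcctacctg
Tgtp2, chr11:49064265-49064301 (-): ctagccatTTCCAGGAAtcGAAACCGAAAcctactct
Gm12250, chr11:58183774-58183814 (+): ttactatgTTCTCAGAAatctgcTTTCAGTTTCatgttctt
Irgm1, chr11:48871427-48871458 (-): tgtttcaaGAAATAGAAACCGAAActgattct

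The Igtp and Irgm2 windows differed at 1 of 37 bases and the Tgtp1 and Tgtp2 windows at 4 of 37, while windows of one pair differed from those of the other at 7 or 8. In these 4 windows the elements stood 2 bases apart, and in Gm12250 they stood 6 bases apart. The RefSeq start of Gm12250 lies before the row of this gene in the deposited tables, and that of Tgtp2 lies a few bases before its row. Those of Irgm1, Irgm2 and Tgtp1 lie inside theirs. A match is a description of letters and not of binding, and no match in Ifi47 concerns only this window.

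Depth was even, with 17369020 to 18403790 reads on genes per sample. Denr itself, the targeted gene, had its higher values in the control samples under either treatment, without overlap. Its normalized counts, which are reads divided by 1 size factor per sample, were 1438 and 1401 in control and 946 and 957 in DENR KO cells with IFNγ, and 1448 and 1297 against 943 and 916 untreated. The fall was 0.58 (SE 0.071, limma adjusted p = 8.2e-06) and 0.56 (SE 0.078, adjusted p = 0.00011) on the log2 scale, so about 67.0% and 67.7% of the control level of transcript remained. Without control replicate 1, the untreated fall was 0.48 (adjusted p = 0.022), inside the limit of 0.5 used below. Markers of colon epithelium were at or near 0 (Cdh1, the highest, between 4.91 and 20.6 normalized counts, and Krt8 at most 8.16), and of the leukocyte markers Ptprc and Cd79a reached at most 3.06 and 3.91 while Cd68 stood between 51.3 and 78.6. Summed leukocyte markers were 2.99 and 3.05 RPM, reads scaled to an equal total of reads on genes, in control and 3.59 and 3.78 in DENR KO cells with IFNγ, and summed fibroblast and endothelium markers, mostly Col1a1 and Pdgfrb, 41.6 and 42.7 against 47.6 and 50.3. Their part in the results was not tested.

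With IFNγ the IRG genes had up to 13804 normalized counts in a sample, and untreated none had more than 97.0. Together the 10 members took 2686 and 2755 RPM in the control samples with IFNγ, 0.272% ± 0.00488 (SD, n = 2) of all reads. The 7 members measured untreated took 10.7 and 13.3 RPM in control cells and 14.4 and 10.6 in DENR KO cells. Levels set across the treatments come from separately normalized tables, so the ratios that follow are descriptions with no test. Their intervals are exact 95% intervals that cover counting error only.

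The Irgm regulators had a measurable level before IFNγ. Igtp counted 56 and 64 reads in the untreated control samples, Irgm1 59 and 95, and Irgm2 70 and 63. The effectors were close to silent there, with 3 and 3 reads for Iigp1, 1 and 2 for Tgtp1, 1 and 4 for Gm12250, and 2 and 2 for Ifi47. Each regulator therefore had more reads than any effector in every untreated sample, without overlap.

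The ratio of IFNγ-treated to untreated control cells was lower for the regulators than for most effectors. It was 224 for Igtp (interval 189 to 273 from RPM), 146 for Irgm2 (124 to 176) and 56.3 for Irgm1 (48.5 to 67.1). For the effectors it was 3676 for Iigp1 (1703 to 10101), 3107 for Tgtp1 (1074 to 15232) and 915 for Gm12250 (397 to 2856), with wide intervals because the untreated counts were so low. Ifi47 had the smallest ratio, 30.3 (11.6 to 114).

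**Figure D1:**
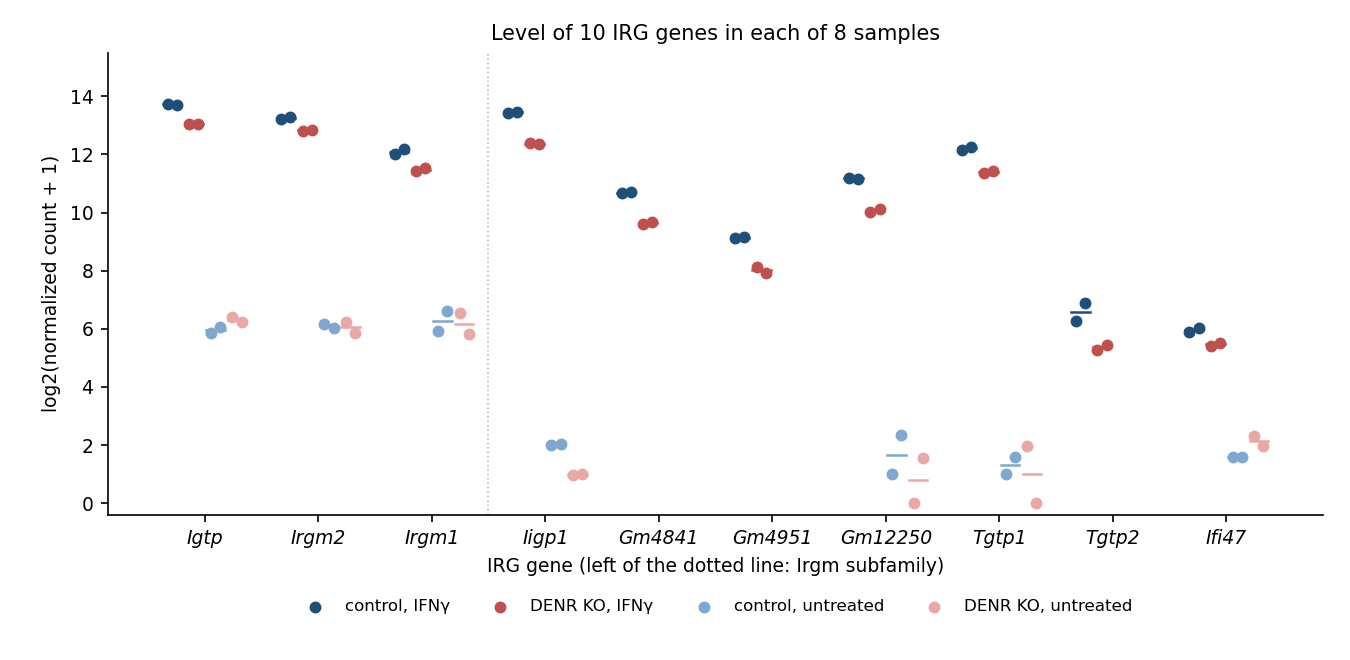
Levels of the 10 IRG genes as log2(normalized count + 1), with a point for each of the 8 samples and a short bar for the mean of each group of 2. With IFNγ both DENR KO samples lie below both control samples for all 10 genes, and untreated only Igtp, Irgm2 and Irgm1 lie above 5, while Tgtp2, Gm4841 and Gm4951 have no untreated points.

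The question of the main comparison is whether IFNγ-treated MC38 cells express these genes differently without DENR. With IFNγ, each of the 10 members had its lower values in the DENR KO samples, with no overlap between the groups, an order that 20.8% of the 13928 genes tested showed. Of the 10, 8 were significantly lower by limma (adjusted p-value under 0.05 and log2 fold change beyond 0.5), against 1.03% of all genes tested, and none was higher. In a fit of all 8 samples with 1 shared spread per gene, which holds 7 of the members, only Iigp1 (adjusted p = 6.9e-05) and Igtp (adjusted p = 1.6e-05) were called, and Irgm1 (adjusted p = 0.6), Tgtp1 (0.76) and Gm12250 (0.62) were not. The fold changes are the same in both fits. The standard errors of these 3 genes were 0.36, 0.71 and 0.68 in the fit of all 8 samples, against 0.064, 0.062 and 0.068 in the fit of the IFNγ samples. The shared spread takes in the untreated samples, where reads per sample ran from 56 to 95 for Irgm1, 0 to 3 for Tgtp1 and 0 to 4 for Gm12250. The cause of the larger errors was not tested. At an adjusted p-value under 0.05 with no requirement on the fold change, 9 were lower, against 2.25% of all genes. The median log2 fold change of the members was −0.93, and that of all genes was 0.00. Among the 143 genes called lower, the 8 members held ranks 15 to 104 by the size of the fold change. Fewer responding cells and less RNA per cell cannot be told apart in such bulk samples.

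Iigp1, which encodes the vacuole-loading effector Irga6, was the most abundant effector. Its normalized counts were 11060 and 11290 in control cells and 5378 and 5257 in DENR KO cells, so 47.6% of the control level remained. The groups stood far apart compared with the spread of their replicates, and the log2 fold change was −1.07 (SE 0.052, adjusted p = 2.7e-12).

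The genes of the same group as Iigp1 lay close to this value. Gm4841 had normalized counts of 1635 and 1667 in control and 773 and 823 in DENR KO cells, and changed by −1.05 (log2, SE 0.073, adjusted p = 1e-09). Gm4951 had 552 and 577 against 280 and 241, a log2 fold change of −1.11 (SE 0.11, adjusted p = 1.7e-07). For both genes the DENR KO samples held under 50% of the control mean, 48.4% for Gm4841 and 46.2% for Gm4951.

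Gm12250, which encodes Irgb10, an effector known to act on bacterial membranes, had normalized counts of 2360 and 2299 in control and 1039 and 1110 in DENR KO cells. These groups do not overlap, and the log2 fold change was −1.12 (SE 0.068, adjusted p = 9.3e-11), with 46.1% of the control level left. The deposited annotation lists Gm12250 as a processed pseudogene of 1274 bases, although the Irgb10 protein is known.

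The Irgb6 genes Tgtp1 and Tgtp2 cannot be fully separated by reads. Of the 100-base stretches of the Tgtp1 transcripts in GENCODE vM21, 70.3% are also in Tgtp2, and 76.8% of those of Tgtp2 are in Tgtp1. Tgtp1 had normalized counts of 4531 and 4935 in control and 2610 and 2780 in DENR KO cells, 56.9% of control, with a log2 fold change of −0.81 (SE 0.062, adjusted p = 4.3e-09). Tgtp2 had far fewer, 76.8 and 117 in control and 37.4 and 43.0 in DENR KO cells, and its log2 fold change of −1.22 (SE 0.24, adjusted p = 0.0029) is the lowest among the members and among the least precise. Without control replicate 2 with IFNγ, the higher of the 2 control samples, the Tgtp2 value was −0.92 and no longer significant (adjusted p = 0.09). The sum of Tgtp1 and Tgtp2 changed by −0.82 (adjusted p = 4.2e-09).

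The Irgm regulators had smaller fold changes than most effectors. Igtp, the most abundant member, had normalized counts of 13804 and 13487 in control and 8498 and 8395 in DENR KO cells, 61.9% of control, with a log2 fold change of −0.69 (SE 0.050, adjusted p = 1.7e-09). Irgm1, whose loss in mice leaves them open to infection and damages their lymphocytes and stem cells, had 4182 and 4617 against 2732 and 2960, a log2 fold change of −0.63 (SE 0.064, adjusted p = 4.6e-07). Irgm2 had 9549 and 10138 in control and 7198 and 7408 in DENR KO cells. The groups do not overlap, but the log2 fold change of Irgm2, −0.43 (SE 0.053, adjusted p = 7.9e-06), was the smallest of all 10 and stayed inside the limit of 0.5, so Irgm2 was not called.

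In the fit of the IFNγ samples, the 95% intervals of the log2 fold change place the regulators above Iigp1, Gm4841, Gm4951 and Gm12250. They ran from −0.80 to −0.59 for Igtp, from −0.76 to −0.50 for Irgm1 and from −0.54 to −0.32 for Irgm2. Those of Iigp1 (−1.18 to −0.96), Gm4841 (−1.2 to −0.90), Gm4951 (−1.34 to −0.89) and Gm12250 (−1.26 to −0.98) lie below all 3 with no overlap. The interval of Tgtp1 (−0.94 to −0.68) overlaps those of Igtp and Irgm1, and that of Tgtp2 (−1.72 to −0.72) does as well. That of Ifi47 (−1.01 to 0.01) overlaps all 3. In the fit of all 8 samples the standard errors of Gm12250 (0.68) and Irgm1 (0.36) were larger. The differences between genes were not tested.

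Ifi47, which encodes the effector Irgd, was the least abundant member in control cells with IFNγ and did not pass the test. Its normalized counts were 58.4 and 64.4 in control and 41.3 and 44.9 in DENR KO cells. The log2 fold change was −0.50 with an interval from −1.01 to 0.01 (SE 0.24, adjusted p = 0.38). The interval holds no change as well as a change as large as that of Igtp, so a difference was not detectable at this depth. Ifi47 lies on the same strand inside the span of Olfr56, with 111 exon bases shared, 4.49% of those of Ifi47. Olfr56, named for an olfactory receptor, had 1127 and 1237 normalized counts in control and 654 and 702 in DENR KO cells with IFNγ, a log2 fold change of −0.80 (SE 0.081, adjusted p = 3.7e-07), and between 5.10 and 13.7 in the untreated samples. Whether reads of Ifi47 transcripts are counted under Olfr56 was not tested. The sum of both, an alternative chosen after seeing the data, changed by −0.78 (adjusted p = 4e-07).

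**Figure D2:**
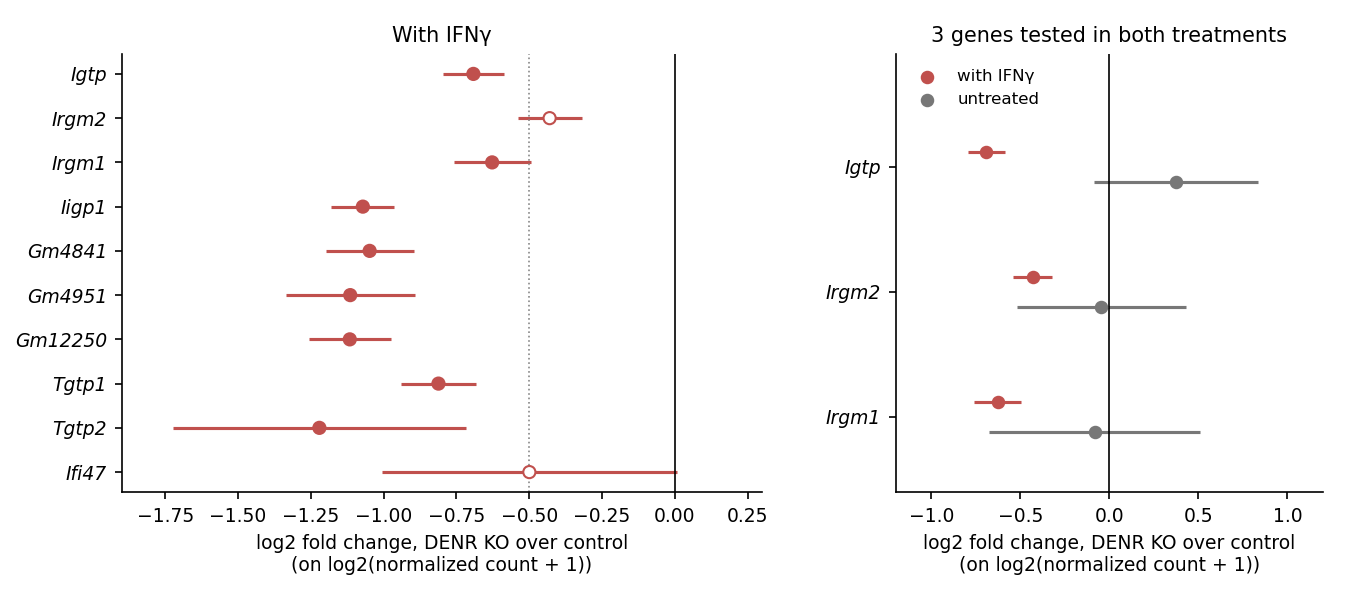
Change between control and DENR KO cells as log2 fold change on log2(normalized count + 1), with 95% intervals from limma. Left, all 10 IRG genes with IFNγ, filled where called, with a dotted line at −0.5: Irgm2 and Ifi47 are open and Gm12250, Gm4951, Iigp1 and Gm4841 lie near −1.1. Right, Igtp, Irgm2 and Irgm1 in both treatments, where the untreated intervals all include 0.

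The reads of the whole family fell with its members. Summed over the 10 genes, they came to 1615 and 1645 RPM in DENR KO cells with IFNγ, 59.9% of the control mean of 2721. Igtp made up between 27.4% and 29.7% of the family's reads in the 4 samples, and without it the family took 1955 RPM in control and 1153 in DENR KO cells.

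Per transcript length, the order of the members in control cells with IFNγ depended on the length taken for Iigp1. In RPKM, computed here from the recovered reads and the gene length of the deposited table, Igtp led with 379 ± 7.07 (SD, n = 2), followed by Iigp1 with 201 ± 2.47, Irgm2 with 150 ± 6.0 and Gm12250 with 103 ± 2.14. Tgtp1 had 82.8 ± 4.82, Irgm1 42.5 ± 2.88, Gm4841 32.6 ± 0.373 and Gm4951 11.97 ± 0.342. Tgtp2, at 1.85 ± 0.535, and Ifi47, at 1.39 ± 0.0936, came last, and no neighbours in this order overlapped. The length of Iigp1 is 3121 bases in the table and 5823 exon bases in GENCODE vM21. With the longer length, an alternative chosen after seeing the data, Iigp1 had 108 RPKM ± 1.33 and stood below Irgm2 in control cells already.

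In DENR KO cells with IFNγ, with the lengths of the table, the order changed in 2 places. Irgm2, at 112 RPKM ± 2.44, stood above Iigp1, at 96.4 ± 1.42, and Ifi47, at 0.986 ± 0.0596, above Tgtp2, at 0.774 ± 0.0771. Gm12250 (47.7 ± 2.28) and Tgtp1 (47.6 ± 2.19) overlapped and could not be ordered. Igtp still led, with 236 ± 1.69, and with the longer length Iigp1 had 51.6 ± 0.760.

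The unequal fall can be restated as ratios inside each sample, where no scaling between samples enters. These ratios come from the same reads as the fold changes and are not further support for them. Irgm2, the member with the smallest change, was taken as the reference after the values were seen. Iigp1 had 1.16 and 1.11 reads per Irgm2 read in the control samples with IFNγ and 0.747 and 0.710 in the DENR KO samples. For Gm12250 the ratio was 0.247 and 0.227 against 0.144 and 0.150. For the regulators it moved less, from 1.45 and 1.33 to 1.18 and 1.13 for Igtp and from 0.438 and 0.455 to 0.380 and 0.400 for Irgm1. With Irgm2 chosen in this way a lower ratio is what the choice favours, so no conclusion is drawn from its being lower in both DENR KO samples for 9 of 9 members. The share of all genes with a lower ratio was not computed. For Ifi47 the ratios were close, 0.00612 and 0.00636 in control against 0.00574 and 0.00606 in DENR KO samples.

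**Figure D3:**
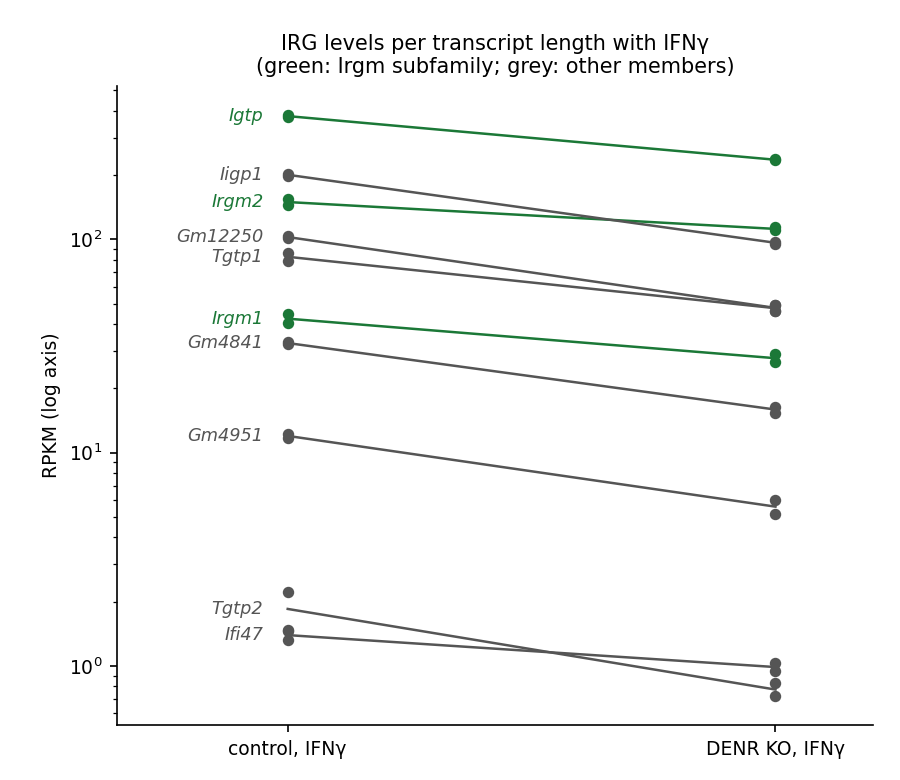
RPKM of the 10 IRG genes with IFNγ on a log axis, with a point for each of 2 control and 2 DENR KO samples and a line joining the group means. The lines of the Irgm subfamily (green) fall less steeply than most others, and Irgm2 crosses Iigp1, with the gene lengths of the deposited table.

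The members lie in clusters on GRCm38, the build whose coordinates the tables carry. On chromosome 11, Irgm1 is at 48861968-48871683 (minus strand), Tgtp1 at 48985327-48994172 (minus), Tgtp2 at 49057194-49064206 (minus) and Ifi47 at 49076587-49096974 (plus). Further along the chromosome, Gm12250 is at 58187739-58189012, Igtp at 58199556-58207591 and Irgm2 at 58199618-58222782, all on the plus strand. Igtp and Irgm2 share 162 exon bases, 8.01% of those of Igtp and 4.39% of those of Irgm2. Gm4951 (60212080-60247820, plus), Gm4841 (60268301-60273267, minus) and Iigp1 (60376029-60392627, plus) are neighbours on chromosome 18. These 3 had log2 fold changes between −1.11 and −1.05 with IFNγ, while on chromosome 11 the members ranged from −1.22 to −0.43.

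Untreated, few IRG genes had enough reads for a test of the DENR KO effect. Of the 7 members with a row, 3 had a mean of at least 10 normalized counts and were tested in the untreated samples among 13998 genes. There none was called in either direction by limma, edgeR or DESeq2, and none had an unadjusted p-value under 0.05 by any of the 3 tools, while 0.0857% of all genes tested were called lower by limma. The fit of all 8 samples with a shared spread tested all 7. In it Iigp1 was called lower untreated (−1.03, limma adjusted p = 0.00053), on 3 and 3 reads in control and 1 and 1 in DENR KO cells. Iigp1, Tgtp1, Gm12250 and Ifi47 reached a mean of at least 10 there only through their IFNγ-treated samples. The call therefore cannot decide whether Iigp1 differs untreated, and the share of all genes called in that fit is not given here.

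By its group mean, Igtp was higher in the untreated DENR KO samples. Its normalized counts were 56.3 and 65.3 in control and 84.4 and 73.7 in DENR KO cells. With a log2 fold change of 0.37 (interval −0.09 to 0.83, limma adjusted p = 0.63) the difference was not significant in the fit of the untreated samples. In the fit of all 8 samples this difference had an adjusted p of 0.046, by limma, and was inside the limit of 0.5. Irgm1 counted 59.4 and 97.0 against 93.2 and 55.0, and Irgm2 70.4 and 64.3 against 74.6 and 57.0. Both overlapped between the groups, with log2 fold changes of −0.08 (interval −0.67 to 0.51, adjusted p = 0.96) and −0.04 (interval −0.52 to 0.43, adjusted p = 0.97), and at this depth a change as large as that seen with IFNγ was within these intervals for both.

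The other effectors, too, had few reads untreated. Tgtp1 had 1 and 2 in control and 3 and 0 in DENR KO cells, Gm12250 1 and 4 against 0 and 2, and Ifi47 2 and 2 against 4 and 3. In DENR KO cells the ratio of IFNγ-treated to untreated samples was 107 for Igtp (counting interval 93.5 to 128), 111 for Irgm2 (95.7 to 136) and 38.4 for Irgm1 (33.4 to 46.4). For Iigp1 it was 5416 (1532 to 45699), for Tgtp1 1831 (640 to 9070), for Gm12250 1093 (309 to 9240) and for Ifi47 12.6 (5.97 to 32.8). The intervals of these effectors and of Irgm2 overlap those of the same genes in control cells. Those of Igtp and Irgm1 lie below theirs in control cells. The intervals cover counting error only, and no difference in the ratio was tested. In cells without DENR, too, each of these members had more reads in both IFNγ-treated samples than in both untreated samples. The share of all genes in this order was not computed.

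An interaction term fitted to all 8 samples asked whether the DENR KO effect differed between the treatments. Of the 7 members tested among 13998 genes, 1 passed, Igtp, and 0.429% of all genes tested passed in the same direction. The effect on Igtp with IFNγ was lower than untreated by 1.06 on the log2 scale (SE 0.12, adjusted p = 2.5e-05). All 7 differences were below 0 at a pseudocount of 1, those of Iigp1 and Gm12250 were above 0 with a pseudocount of 0.5, by edgeR and by DESeq2, and for Irgm2 the difference of −0.39 (adjusted p = 0.57) and for Irgm1 that of −0.55 (interval −1.92 to 0.83) were not significant. Those of Iigp1 (−0.04, interval −0.48 to 0.39), Tgtp1 (−0.50, interval −3.21 to 2.22), Gm12250 (−0.23, interval −2.72 to 2.27) and Ifi47 (−1.04, interval −2.33 to 0.25) rest on few untreated reads. Without DENR KO replicate 2 untreated, Irgm2 (−0.58, adjusted p = 0.044) and Tgtp1 (−1.49, adjusted p = 0.019) passed as well, so that 3 members were called.

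The genes around the IRG system were counted from lists written from general knowledge of the pathway, with earlier results of these data known. The counts are therefore descriptions and not independent of these data. Of 15 genes of IFNγ signalling and transcription, all tested with IFNγ, none was called higher, and the median log2 fold change was −0.32. Against 1.03% of all genes tested, 6 of the 15 were called lower. They were Batf2 (−0.89, adjusted p = 9.5e-09), a transcription factor that partners IRF1, Irf8 (−0.75, 7.7e-07) and Irf1 (−0.52, 1e-07), which bind ISRE elements, Stat2 (−0.52, 1.8e-05), and the pathway's inhibitors Socs1 (−0.75, 1.9e-08) and Socs3 (−0.62, 5.3e-06). At an adjusted p-value under 0.05 alone, 11 of the 15 were lower with IFNγ, against 2.25% of all genes. Untreated, none of the 14 tested was called, a count near the 0.0857% of all genes called lower there.

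The lists hold 2 kinds of machinery that guide IRG proteins. Conjugation of ATG8 proteins such as LC3 and GABARAP to membranes is needed for IRG effectors to find the vacuole. Of its 12 genes, none was called with IFNγ, a count near the share of all genes called, and their log2 fold changes ran from −0.13 (Atg10) to 0.06 (Atg5), with a median of −0.05. Of 9 genes for ubiquitin and galectin partners at the vacuole, only Trim21, a ubiquitin ligase and antibody receptor, was called (−0.52, adjusted p = 0.00031), and this call was lost when either control replicate 1 or DENR KO replicate 2 with IFNγ was left out.

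Of 8 other IRG-like loci, 5 were tested and 2 were called lower, where 1.03% of all genes tested were called lower. F830016B08Rik changed by −0.96 (adjusted p = 2.7e-06) and Gm12185, which shares 223 exon bases with Tgtp1, by −0.75 (adjusted p = 1.8e-06). Irgq, a distant relative, was at 0.00 (SE 0.079). The other interferon-inducible GTPases were mostly guanylate-binding proteins that act with IRG proteins at the vacuole. Of the 14 listed, 10 were tested and all 10 were called lower, against the same 1.03% of all genes. Gbp2b, Gbp11, Mx1 and Mx2 had a mean under 10 normalized counts and were not tested. The median of those tested was −0.92, with a range from −1.09 (Gbp10) to −0.57 (Gbp7). The fit of all 8 samples called 5 of these GTPases and none of the other IRG-like loci. No difference between these lists and the IRG genes was tested.

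**Figure D4:**
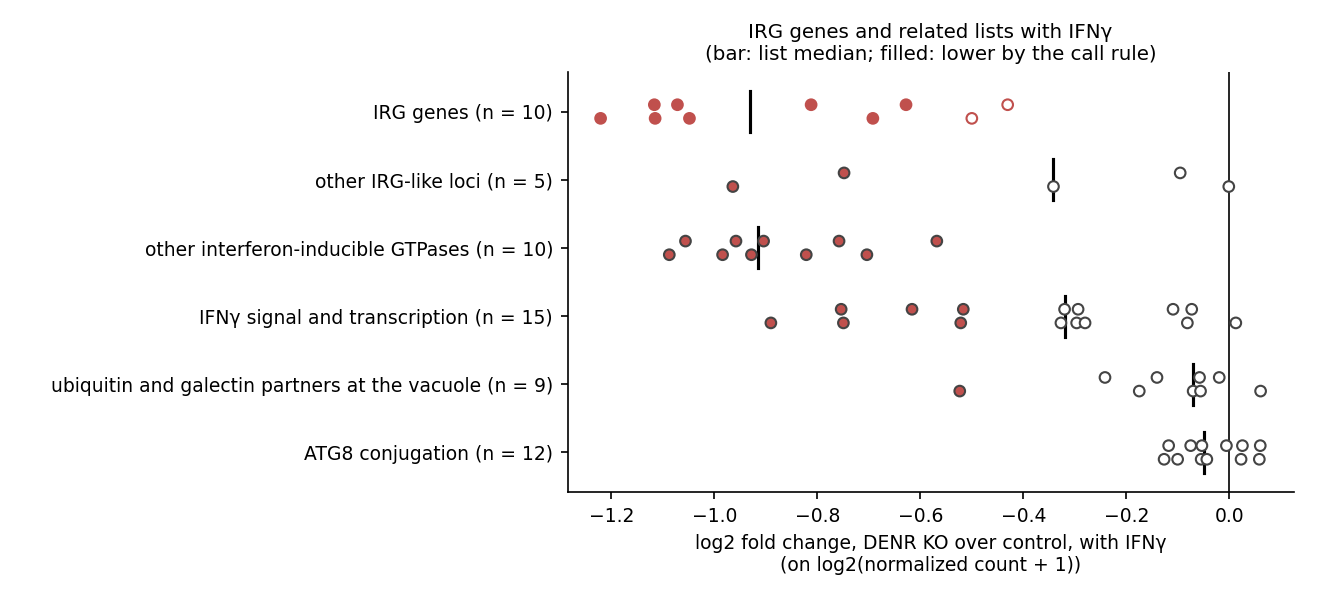
Change from control to DENR KO cells with IFNγ as log2 fold change on log2(normalized count + 1) for each tested gene of 6 lists, filled where called lower, with a bar at the list median. IRG genes (median −0.93) and other interferon-inducible GTPases (−0.92) lie lowest, and ATG8 conjugation genes (−0.05) lie near 0.

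The genes most like the family were sought over all 8 samples. Profiles were log2(normalized count + 1) values centred on each gene's mean, and likeness was the root mean square difference from the median profile of the 7 members in both tables. Among 10320 other genes with a mean of at least 100, Gbp3 was nearest (0.27), followed by Cxcl10 (0.29), Gbp2 (0.29), Apol6 (0.39) and Gbp7 (0.42), against a median of 3.69 over all genes compared. Of the members themselves, Igtp (0.07) and Irgm2 (0.23) lay nearest to the profile and Iigp1 (2.12) farthest. The measure is set mostly by the gap between treatments, which all 8 samples share.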

How the data were processed

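Per the labels and the study's methods, RNA of MC38 cells was extracted with Trizol, selected with poly-T beads and sequenced as paired ends by a company. The submitters' processing notes name HISAT2 2.0.5, StringTie 1.3.3b, featureCounts 1.5.0-p3 and DESeq2 1.20.0, and a build (mm9) that the files do not carry: of 21770 genes of the IFNγ table with an ID in GENCODE vM21 (GRCm38), 95.2% have the same coordinates. The authors deposited 2 tables, each with a normalized signal per sample (reads divided by a size factor), group means and their own fold changes and p-values, which were not used. Strand and multimapping settings are not given in the sources used here.

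All values were whole multiples of a step per sample, so reads were recovered (size factors 0.976 to 1.02). RPKM and RPM were computed from them. limma (3.58.1, R 4.3.3; trend, robust) was run on log2(value + 1) over all genes whose mean in a table was 10 or more, with Benjamini-Hochberg adjustment over all genes. The interaction used the 8 samples. A pseudocount of 1 understates changes of low genes. edgeR (4.0.16) and DESeq2 (1.42.0) on the recovered reads, other pseudocounts, filters and scaling, and leaving out each sample were alternatives. Each fit was tested on simulated data. Promoters came from RefSeq (GRCm38.p6). The named genes are all members, Denr, the called or most changed genes of each list and the 5 genes most like the members. Members and lists were chosen with earlier results of these data known. 1 gene of the IFNγ signalling list is counted but not reported by name here.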

Additional observations from a re-analysis of the deposited data

Results flagged for a closer look

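The DENR KO effect on Igtp differed between the treatments by an interaction test, with a difference of −1.06 on the log2 scale between its effect with IFNγ (−0.69) and untreated (0.37). Among the genes of the lists, the same test passed for Irf8 (−2.45), Gbp4 (−1.28), Batf2 (−0.997), Socs1 (−0.75), Irf1 (−0.58), Nlrc5 (−0.48) and Gbp2 (−0.48). Neither Gbp4 nor Gbp2 passed it by edgeR or DESeq2, and Nlrc5 did not pass it by edgeR. Of all genes tested, 0.429% passed in this direction. The value of Irf8 rests on untreated reads of 3 and 2 in control and 11 and 10 in DENR KO cells. Irf8 was too low for the untreated fit and entered this test only through its IFNγ-treated samples, where its effect was −0.75. Gbp4 had between 14 and 22 untreated reads in a sample. With 2 samples in a group, no sample could be tested as standing apart from its group.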

How the results depend on the processing

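With IFNγ, the count of 8 members called lower stayed within 1.5 times under all alternatives except the fit of all 8 samples together, which called 2 of the 7 members it could test. That fit also called 1 member lower untreated, Iigp1, which had 1 to 3 untreated reads in a sample. Iigp1 entered the fit only through its IFNγ-treated samples, so no conclusion is drawn from this call. With IFNγ it called 5 of the other interferon-inducible GTPases and 0 other IRG-like loci. No member was called higher under any alternative. Leaving out a sample gave between 1 and 3 members called in the interaction. The members' replicate numbers are shared between the groups, and nothing says that a number marks a shared culture or day. The correlation of same-numbered deviations was 0.22 with IFNγ and 0.05 untreated. With the replicate block 8 members were called lower with IFNγ, 0 untreated and 1 in the interaction, as without it.

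Directions turned only where few reads were behind them. Untreated, leaving out a sample moved Irgm1 between −0.46 and 0.29 and Irgm2 between −0.24 and 0.15. In the interaction, Iigp1 was at 0.18 with a pseudocount of 0.5, 0.45 by edgeR and 0.55 by DESeq2, and Gm12250 at 0.13, 0.15 and 0.24 with these settings. Leaving out a sample moved the interaction of Tgtp1 between −1.49 and 0.49 and that of Gm12250 between −1.01 and 0.56. Without the most abundant member of each sample, the family took 1955 and 1153 RPM in control and DENR KO cells with IFNγ and 7.34 and 7.88 untreated. The median log2 ratio of IFNγ-treated to untreated levels, 7.81 in control and 6.79 in DENR KO cells, moved by less than the spread between replicates under other scalings. This median is the value of Igtp in control cells and of Irgm2 in DENR KO cells. Igtp went from 7.81 to 6.74 and Irgm2 from 7.19 to 6.79, and Irgm1, Tgtp1 and Ifi47 also went down. Iigp1 (11.8 to 12.4) and Gm12250 (9.84 to 10.1) went up, on few untreated reads. Precision is limited by 2 samples per group and, untreated, by the few reads on these genes.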
